A study of Mus musculus with 4 samples.

Results

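The genes described here encode the protein components of the cytosolic ribosome, and their transcripts were measured by RNA-Seq in Tc1 and Tc9 cells sorted from mouse melanomas. They were chosen by symbol alone: *Rps* or *Rpl* followed by a number, with the stalk genes *Rplp0*, *Rplp1* and *Rplp2* included and S6 kinases and named pseudogenes left out. The tables list 81 such genes among the 15981 genes found in at least 1 library, 31 for the small and 50 for the large ribosomal subunit. RefSeq has 88 symbols of this form, and 7 of them are not listed in these tables: *Rpl3l* and *Rpl10l*, which are annotated as protein coding, and the pseudogenes *Rpl6l*, *Rps3a2*, *Rps3a3*, *Rps4l* and *Rps12l1*. Because the genes are listed in the order of their identifiers and each table stops at a different identifier, the 4 libraries do not hold the same members. Tc1 replicate 1 reached 4 members, Tc9 replicate 1 reached 5, Tc1 replicate 2 reached 40 and Tc9 replicate 2 reached all 81.

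Both groups were Thy1.1+ Pmel-1 CD8+ T cells on the C57BL/6 background, whose transgenic receptor recognizes a melanoma antigen. Tc9 cells, named for the cytokine IL-9, were polarized with IL-4, TGF-β and an antibody against IFN-γ, and Tc1 cells with recombinant human IL-2. The paper describes activation of both through CD3 and CD28 during polarization, or by peptide in some experiments. Polarized cells of both groups were then kept with recombinant human IL-2. After 5 days of culture the cells were given intravenously to Thy1.2+ B6 mice carrying subcutaneous B16 melanomas of 10 days, with cyclophosphamide, peptide-pulsed dendritic cells and IL-2 as adjuvant treatments in both groups, and the transferred cells were sorted from the tumors 14 days later. RNA from several mice was pooled into 2 samples per group, so each library is a pool and all cells carry the same receptor. The comparison asks how tumor-infiltrating Tc9 cells differ from Tc1 cells in gene expression.

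A cytosolic ribosome holds a small subunit, which reads the mRNA, and a large subunit, which joins amino acids. Most proteins of both are present once in each ribosome, and their mRNAs are among the most abundant of a dividing cell. Most of these mRNAs begin with a C followed by an unbroken run of pyrimidines, the 5′ terminal oligopyrimidine (TOP) tract, through which mTORC1 controls their translation. In CD8+ T cells, ribosome production rises on activation, downstream of MYC and mTORC1.

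The tract was searched in the DNA around the annotated starts, because it is a feature that the choice by symbol did not use. In the promoter table of RefSeq (assembly GRCm38, strand of the transcript), 61 of the 81 members had an entry. A C followed by at least 7 further bases that are each C or T, within 50 bases on either side of the start, was found for 50 of these 61 (82.0%). The share was 28.7% over all 27025 promoters of the table and 27.7% over the 11315 entries of genes listed in Tc9 replicate 2. On the opposite strand the share was 21.3% for members and 30.8% for all promoters. A match describes the letters of the window and is not evidence that transcription starts there. The members below are those on which the comparisons between Tc1 and Tc9 cells turn and the member with the highest level. Capitals mark the run, which need not be the first bases of the mRNA. Counted in bases from the annotated start, it begins at -20 for *Rpl5*, 41 for *Rpl10* and -18 for *Rpl31*. For *Rps2* it begins at 40, for *Rps6* at -1 and for *Rps26* at 4.
Rpl5, chr5:107900500-107900529, plus strand: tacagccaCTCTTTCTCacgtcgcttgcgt
Rpl10, chrX:74270836-74270865, plus strand: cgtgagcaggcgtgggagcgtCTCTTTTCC
Rpl31, chr1:39367825-39367854, plus strand: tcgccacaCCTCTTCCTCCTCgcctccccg
Rps2, chr17:24720083-24720112, plus strand: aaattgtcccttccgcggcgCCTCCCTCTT
Rps6, chr4:86857347-86857376, minus strand: aagtcgggCCTCTTTTTCgtgacgcctccc
Rps26, chr10:128626481-128626510, minus strand: cgccggatCCTCTTTCgagtcttggctcca
The windows of *Rplp0* and *Rpl10a* hold no such run, and *Rps29* has no entry in the table. *Rpl5*, *Rpl31*, *Rps2* and *Rps6* differ in the direction or size of their values below while all have such a run in their window.

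The libraries were close in depth, with totals between 30822953 counts, the sum of the Tc9 replicate 2 table, and 31927162, estimated for Tc1 replicate 2 as for both replicate 1 libraries from counts and FPKM, so 3 counts, the smallest number taken as above 0, stand for 0.0940 to 0.0973 CPM (counts scaled to library size). The markers of CD8+ T cells were present in every library, 6 of the 7 reached by the replicate 1 tables and 7 of 8 in the replicate 2 libraries having more than 3 counts, with *Trac* at 0 in all 4. Among markers of cells a sort can let through, the summed level of melanoma genes was 2.57 CPM in Tc1 and 4.36 CPM in Tc9 replicate 2, *Mlana*, *Tyrp1*, *Dct* and *Sox10* were at 0 where reached, and myeloid markers, nearly all *Cd68*, summed to 7.13 and 7.42 CPM in Tc1 and 12.0 and 14.5 CPM in Tc9 cells, with *Lyz2* at 0 to 3 counts. B cell markers summed to 5.32 CPM in Tc1 replicate 2 and to 12.8 and 15.8 CPM in Tc9 cells, nearly all from *Cd79b*, which Tc1 replicate 1 did not reach, while *Ms4a1* had 1 to 4 counts. Both sums were thus higher in the Tc9 libraries. The count of *Foxp3*, the regulatory T cell factor, was 1592 for Tc9 replicate 2 against 34.6 for Tc1 replicate 2, where *Cd4* had 58 and 45, and the part of all these markers in the results was not tested.

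In Tc9 replicate 2, the library that reached all of them, the ribosomal protein genes were among the most abundant transcripts. They made up 0.525% of the listed genes, 7.05% of the counts (95% Wilson interval 7.0451 to 7.0632%, counting error only) and 23.3% of the summed FPKM, the fragments scaled by transcript length and by library size. Their median was 1301 FPKM, against 5.09 over all listed genes, and 56 of the 81 lay among the 100 genes with the highest FPKM. The subunits had similar medians, 1450 FPKM over 31 small subunit genes and 1300 over 50 large subunit genes. With 1 library reaching most members, these levels have no replicate spread.

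The highest FPKM belonged to *Rps26* at 6885, a small subunit protein beside the mRNA exit channel. *Rpl41*, which encodes the smallest protein of the large subunit, followed at 4830 FPKM, then *Rps2* at 3974, *Rps15* at 3918 and *Rpl23a* at 3316. These 5 ranked between 3 and 7 among all listed genes. The middle of the distribution was narrow, with the quartiles at 807 and 2051 FPKM. Below it, 15 members had under 150 FPKM, and the step was abrupt, since only *Rpl22* at 205 and *Rpl37* at 487 FPKM lay between 150 and 500.

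**Figure D1:**
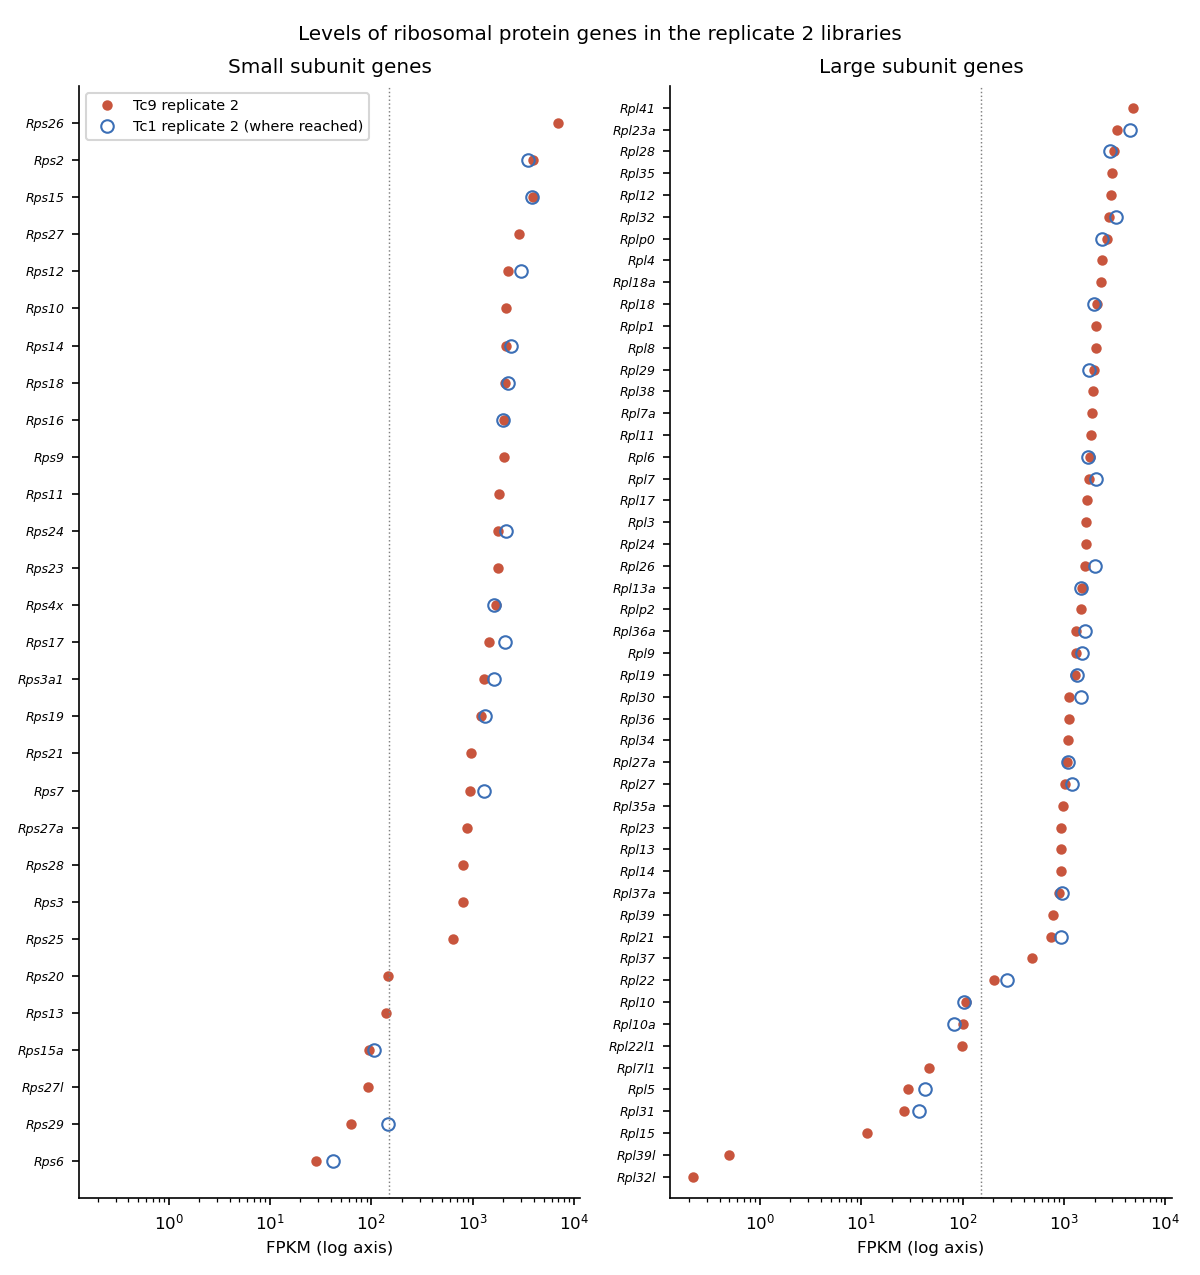
FPKM (log axis) of 29 small subunit and 50 large subunit genes in Tc9 replicate 2 (filled points) and, for 38 of them, in Tc1 replicate 2 (open points), in the order of the Tc9 level; the dotted line is 150 FPKM. Of the 79 genes drawn, 64 sit at or over that line and 15 under it, down to *Rpl32l* at 0.22 FPKM.

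The 15 genes under 150 FPKM were of 3 kinds. Several are paralogs that are known to be expressed at low levels or in few tissues. *Rpl32l* had 3 counts (0.22 FPKM) and *Rpl39l*, whose protein replaces Rpl39 in male germ cells, 10 counts (0.49 FPKM). *Rpl7l1* had 46.9 FPKM, *Rps27l*, a p53-responsive paralog, 92.2 FPKM, and *Rpl22l1* 98.1 FPKM. *Rps15a* and *Rps20* had 14738 and 14775 counts, as many as other members, and low FPKM of 95.3 and 145 at table lengths of 5158 and 3446 bases, against a median of 764 bases for the members that both replicate 2 tables hold. The other 8 are core ribosomal proteins with few counts for their length: *Rpl15* at 11.3 FPKM, *Rpl31* at 26.2, *Rps6* at 28.4, *Rpl5* at 29.1, *Rps29* at 62.5, *Rpl10a* at 101, *Rpl10* at 107 and *Rps13* at 139.

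Ribosomal protein mRNAs have many processed pseudogenes, so reads from them can match several places. In GENCODE vM21, 79 of the 81 members shared at least 1 stretch of 50 bases with another annotated gene, and 43 shared more than 50% of all such stretches. The share was 92.1% for *Rpl10*, with 14 pseudogenes, 83.0% for *Rps13*, 62.0% for *Rpl10a*, 55.1% for *Rps6*, 48.5% for *Rpl5*, 32.9% for *Rpl31*, 30.2% for *Rpl15* and 26.5% for *Rps29*. Genes with high levels shared as much, for example *Rps27* with 98.6% at 2895 FPKM. The median share was 32.9% over the 13 members between 1 and 150 FPKM and 53.0% over the 66 at or over 150 FPKM. Expected counts that were not whole, which arise when reads are divided among several origins, occurred in 61 of the 81 members (75.3%) and in 18.04% of all listed genes. The tables list 2 ribosomal protein pseudogenes, *Rpl34-ps1* and *Rpl31-ps12*. How the authors' counting assigned shared reads is not given in the sources used here, and values of members with a large shared part are uncertain.

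**Figure D2:**
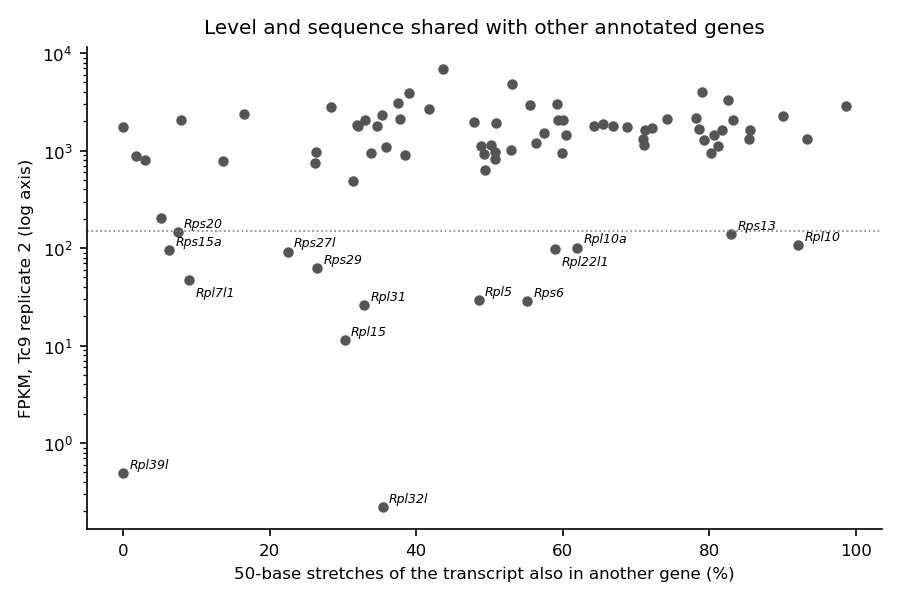
Percent of the 50-base stretches of each member's transcript that also occur in another annotated gene (horizontal) against FPKM in Tc9 replicate 2 (vertical, log axis), 1 point per gene for 81 genes, with names for those under 150 FPKM (dotted line). Genes with high and with low levels lie along the whole horizontal range.

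Paralog pairs in Tc9 replicate 2 were led by the canonical gene. *Rpl7* had 1779 FPKM against 46.9 for *Rpl7l1*, *Rps27* 2895 against 92.2 for *Rps27l*, and *Rpl39* 778 against 0.49 for *Rpl39l*. *Rpl22* and *Rpl22l1* were closer, at 205 and 98.1 FPKM, so that *Rpl22l1* made up 32.4% of the pair. *Rpl36a* had 1301 FPKM against 554 for *Rpl36al*. The partners of *Rpl3* (1645 FPKM), *Rpl10* (107 FPKM) and *Rps4x* (1699 FPKM) are not listed. *Rpl10l*, the partner of *Rpl10*, lies inside the range of both replicate 2 tables and is listed in neither, while the other partners were not reached in Tc1 cells, so no other pair could be compared between the groups.

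Between Tc9 and Tc1 cells, the 4 members that all libraries reached did not pass the test. In edgeR's quasi-likelihood test with Benjamini-Hochberg adjustment over the 1284 genes of that range, 224 genes (17.4%) were higher and 214 (16.7%) were lower in Tc9 cells, and 0 of 4 members were called in either direction. By an unadjusted p under 0.05, 3 of the 4 members were lower by edgeR, against 591 of 1284 genes (46.0%) in either direction. By DESeq2 and by limma on log2(FPKM + 1), 1 member each was lower, against 40.5% and 44.5% of all genes. With 2 libraries against 2, the smallest p that exact permutation of the labels allows for 1 gene is 0.333. The p-values measure the spread between pooled libraries, and in bulk RNA a change in the makeup of the cells and a change of RNA per cell cannot be told apart.

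*Rpl5* encodes a protein that joins Rpl11 and 5S rRNA in a particle that can hold the p53 regulator MDM2. It had 2861 counts in the first Tc1 library, 2573 in its replicate, and 2471 and 1699 in Tc9 cells, or 86.4 ± 6.24 against 66.4 ± 17.4 CPM (mean ± SD, n = 2 each). Both Tc9 libraries lay below both Tc1 libraries, and Tc9 replicate 1 was much nearer to Tc1 cells than to its own replicate. The log2 fold change was -0.38 (SE 0.17, adjusted p = 0.106 by edgeR).

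*Rpl31*, a protein beside the exit tunnel of the nascent chain, had 1157 and 1181 counts in Tc1 cells and 1049 and 815 in Tc9 cells. In CPM this was 37.2 ± 0.630 against 29.7 ± 5.26 (n = 2 each), again with no overlap and with Tc9 replicate 2 lowest. The log2 fold change was -0.32 (SE 0.14, adjusted p = 0.0965 by edgeR). Groups that did not overlap, lower in Tc9 cells, were thus found for 2 of 4 members, beside 35.7% of all genes, and no member had groups that did not overlap with Tc9 cells higher, beside 34.7%.

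*Rpl10*, which is among the last proteins to join the large subunit, had the widest spread. Its counts were 3371 and 2125 in Tc1 cells and 955 and 2169 in Tc9 cells, or 87.3 ± 27.8 against 49.8 ± 27.4 CPM (n = 2 each). The replicate 2 libraries of both groups were almost equal, and the replicate 1 libraries lay on either side of them. The log2 fold change was -0.81 (SE 0.33, adjusted p = 0.0803 by edgeR). With the replicate number as a block, *Rpl10* (log2 fold change -0.88, adjusted p = 1.89e-06) and *Rpl5* (-0.40, adjusted p = 0.0370) passed the threshold by edgeR. In that fit 231 of all genes were higher and 213 lower, but nothing at hand says that equal numbers mark shared mice. The log2 ratio of *Rpl10* was -1.81 between the replicate 1 libraries and 0.030 between the replicate 2 libraries. Its p-value with the block thus rests on a spread borrowed from other genes.

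*Rplp0*, the base of the stalk that recruits elongation factors and a common reference gene in PCR, had 84480 and 91892 counts in Tc1 cells and 87266 and 100252 in Tc9 cells. The groups overlapped, at 2804 ± 174 against 2988 ± 293 CPM (n = 2 each). The log2 fold change was 0.092 (SE 0.10, adjusted p = 0.518 by edgeR).

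The log2 fold changes depended on single libraries. With 1 library left out, its group holds 1 library. The spread of that group is then assumed to be that of the pair in the other group, so p-values rest on that pair alone. Only fold changes are therefore given here. Without Tc9 replicate 1, the log2 fold change was -0.67 for *Rpl5*, -0.52 for *Rpl31* and 0.19 for *Rplp0*, and that of *Rpl10* shrank to -0.34. Without Tc9 replicate 2, *Rpl10* was at -1.52, while *Rpl5* shrank to -0.13 and *Rpl31* to -0.15 and *Rplp0* turned to -0.012. Without Tc1 replicate 2, *Rpl10* was at -1.10, and without Tc1 replicate 1 at -0.44.

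**Figure D3:**
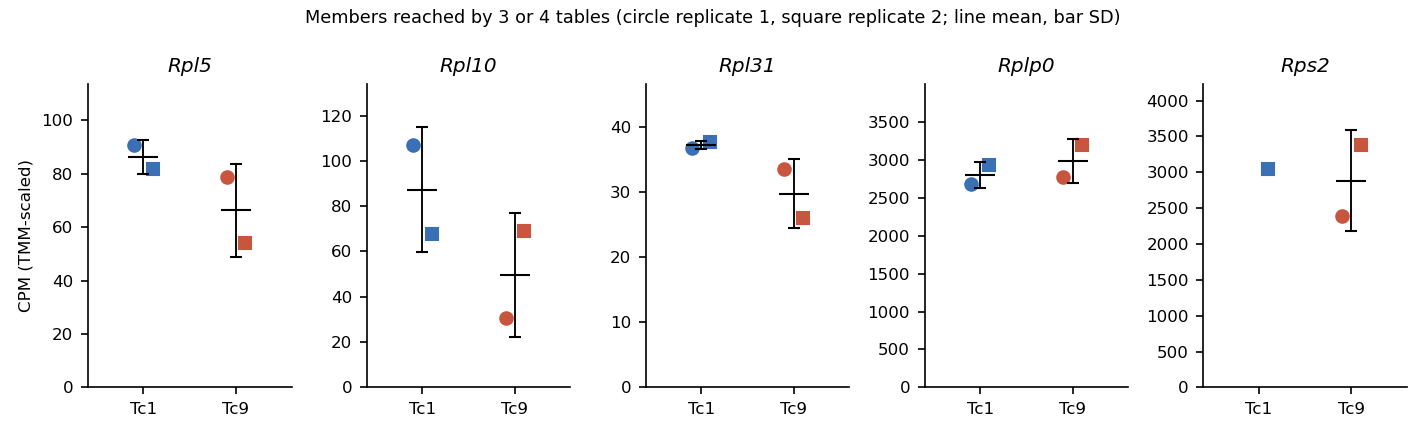
CPM, scaled by depth and TMM factors, of the 5 members that 3 or 4 tables reached, each axis from 0; circles are replicate 1, squares replicate 2, horizontal lines the mean and bars the SD of 2 libraries. For *Rpl5* and *Rpl31* the square of Tc9 cells is lowest, for *Rplp0* and *Rps2* it is highest, and for *Rpl10* the squares of both groups are at about the same height.

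*Rps2*, a small subunit protein at the entry of the mRNA channel, was reached by 3 libraries. The Tc1 library held 95490 counts and the Tc9 libraries 74884 and 106019, so the Tc1 library lay between the Tc9 libraries. In the fit of these 3 libraries, which takes its spread from the Tc9 pair, 197 of 2613 genes (7.54%) were higher and 84 (3.21%) lower in Tc9 cells, and 0 of 5 members were called by edgeR, DESeq2 or limma. At an unadjusted p under 0.05 there were also 0 by each tool, beside 26.7% of all genes by edgeR, 24.3% by DESeq2 and 26.8% by limma. With RLE factors, *Rpl10* alone fell under that unadjusted limit in edgeR's test (adjusted p = 0.149). The log2 fold change of *Rps2* was -0.077 (SE 0.25, adjusted p = 0.863 by edgeR).

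The Tc9 replicates also differed from each other in these genes. The log2 ratio of Tc9 replicate 2 over Tc9 replicate 1 was -0.54 for *Rpl5*, -0.36 for *Rpl31*, 0.20 for *Rplp0* and 0.50 for *Rps2*. That over Tc1 replicate 2 was -0.60, -0.53, 0.13 and 0.15 for the same genes. *Rpl10* stood apart, at 1.18 over Tc9 replicate 1 and 0.030 over Tc1 replicate 2. Both comparisons share Tc9 replicate 2.

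For the 40 members that both replicate 2 tables reached, 1 library of each group could be compared, which describes these 2 libraries and gives no test. All 40 passed the filter on low counts, along with 6120 other genes. Most were slightly lower in the Tc9 library: 28 of 40 (70%) lay below a log2 ratio of 0, beside 47.6% of all 6160 genes. Their median log2 ratio was -0.22, with quartiles of -0.41 and 0.0075, beside 0.030 over all genes, with quartiles of -0.33 and 0.47. The members took 4.01% (95% Wilson interval 4.0005 to 4.0141%) of the counts in Tc1 and 3.78% (3.7779 to 3.7913%) in Tc9 replicate 2. The order of the genes was nearly the same in both libraries, with a Pearson r of 0.991 between their log2 FPKM over 40 genes.

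The differences were small. At the 1.5-fold limit, 3 of 40 members were lower, beside 12.5% of all genes, and 0 were higher, beside 20.7%. *Rps29*, a small zinc-binding protein of the head of the small subunit, was the lowest by far. Its count dropped from 1406 in the Tc1 library to 597 in the Tc9 library, which gave a log2 ratio of -1.23 (95% Wilson interval -1.37 to -1.10, counting error only). *Rps6*, the target of S6 kinase, had 1675 and 1100 counts and a log2 ratio of -0.61 (-0.72 to -0.50). *Rpl5* had a log2 ratio of -0.60 (-0.69 to -0.51). Of these 3, *Rps29* alone passed the limit with depth alone, with FPKM, on the log2(FPKM + 1) scale or after centring by length, and *Rpl5* fell short of it when Tc9 replicate 1 was averaged in (-0.33) and after centring by GC content (-0.38). Short of the limit lay *Rpl31* (-0.53).

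The highest ratio belonged to *Rpl10a*, a protein of the L1 stalk near the exit site, whose counts were 2111 for Tc1 and 2572 for Tc9 cells, or 0.29 (0.20 to 0.37). *Rps2* at 0.15, *Rpl29* at 0.14, *Rplp0* at 0.13 and *Rpl28* at 0.092 followed, with 36759 and 40486 counts for *Rpl29* and 31755 and 33820 for *Rpl28*. By counting error alone, the interval lay below 0 for 28 members, above 0 for 9 and across 0 for 3. Counting error is far smaller than the spread between pools, however: the absolute log2 difference between the Tc9 replicates had its 95th percentile at 0.72 over 2613 genes, and 1 of the 40 members, *Rps29*, exceeded it.

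**Figure D4:**
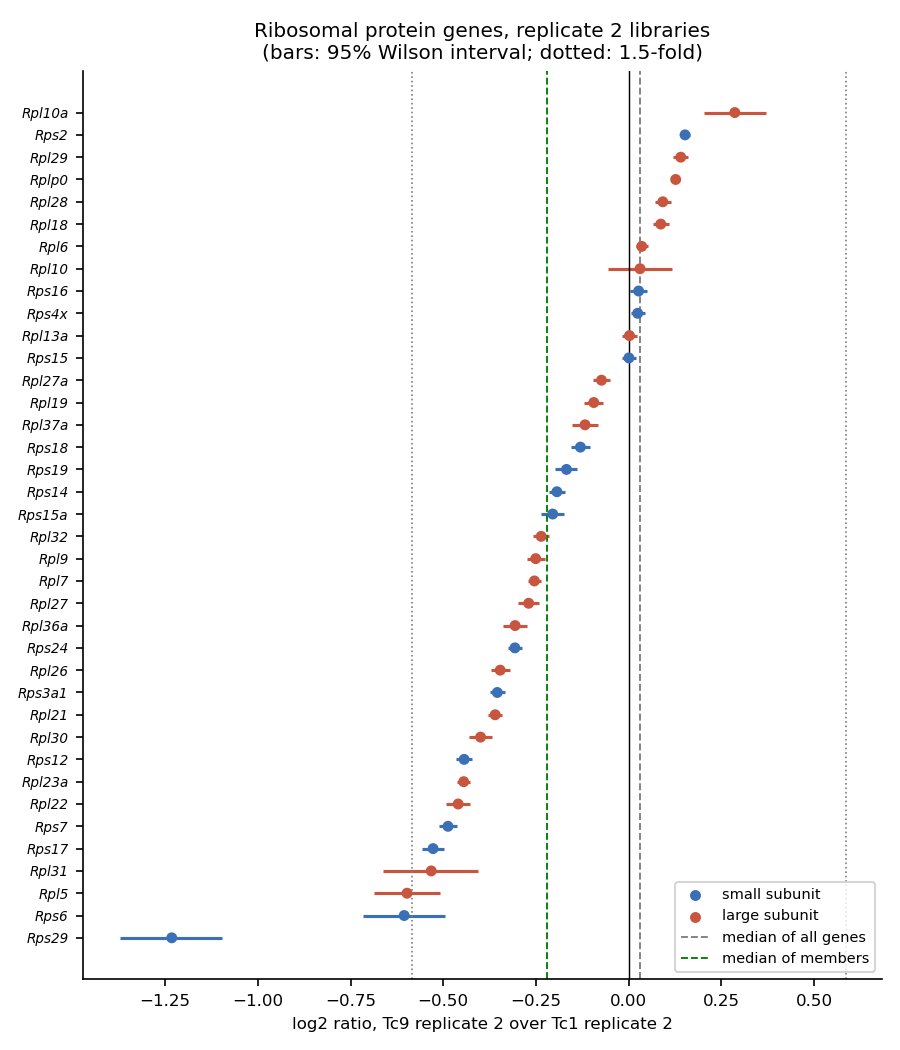
Log2 ratio of Tc9 over Tc1 replicate 2 for 38 members, with 95% Wilson intervals from the counts; blue marks small and red large subunit genes, dotted lines 1.5-fold, and dashed lines the medians of all 40 members (-0.22) and of all genes (0.030). *Rps29* lies apart at -1.23, and the other members run from *Rps6* at -0.61 to *Rpl10a* at 0.29.

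Neither subunit stood apart. The median log2 ratio was -0.21 over 17 small subunit genes, 13 of them lower, and -0.24 over 23 large subunit genes, 15 of them lower. The ratios spread more widely among the members with low FPKM, where *Rps29* lay far below the rest. The 7 members under 150 FPKM in Tc9 replicate 2 ran from -1.23 to 0.29, with an SD of 0.50 and a median of -0.53. The 33 at or over 150 FPKM had an SD of 0.21 and a median of -0.19, 23 of them lower. All 3 members past the 1.5-fold limit were among the 7. Other abundant genes, the 53 at or over a mean of 500 FPKM that are not members, had a median of -0.097, and 56.6% were lower.

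The result changed when transcript length was taken into account. The members are short, with a median length of 764 bases against 3188 for all genes of the range. Among genes shorter than 1500 bases, the 36 members had a median log2 ratio of -0.18 with 24 lower, and the 736 other genes had a median of -0.14 with 59.4% lower. After the ratios were centred on the median of genes of like length, in 10 bins, the median of the 40 members was -0.071 and 22 of 40 (55%) were lower. The log2 ratio itself followed log10 length only weakly, with a Pearson r of 0.0897 over all genes with a GC value and of 0.0394 over the 40 members.

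Taking GC content into account moved the members' median the other way. Over all genes with a GC value, the log2 ratio of Tc9 over Tc1 replicate 2 rose with transcript GC content (Pearson r = 0.298, Spearman rho = 0.399, n = 6135 genes). The same was found between the Tc9 replicates (r = 0.575, rho = 0.660, n = 2594) and not between the Tc1 replicates (r = -0.0035, rho = -0.038, n = 1276) or between Tc9 replicate 1 and Tc1 replicate 2 (r = 0.0708, rho = 0.0673, n = 2594). Genes with at least 55% GC had a median log2 ratio of 0.30 and genes under 45% GC of -0.29 for Tc9 replicate 2 over Tc9 replicate 1. Tc9 replicate 2 thus stood apart from the other libraries along base composition. The points of each correlation share 2 libraries and are not independent.

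Among the 40 members, which run from 42.0 to 63.1% GC, the ratio rose with GC content too (r = 0.396, rho = 0.432). The 20 at or over their median of 50.6% GC had a median log2 ratio of -0.047 with 10 lower, and the 20 below it had -0.35 with 18 lower. The highest of them, *Rpl10a*, *Rps2* and *Rpl29*, have 57.6, 56.5 and 60.5% GC, while *Rps6* at 58.9% was among the lowest. After centring in 10 bins of GC content, 36 of 40 (90%) were lower, with a median of -0.30, and all 5 of the genes with the highest ratio fell below 0: *Rpl10a* at -0.12, *Rps2* at -0.26, *Rpl29* at -0.36, *Rplp0* at -0.025 and *Rpl28* at -0.060. The part of length and GC content in the differences of single genes was not tested further.

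**Figure D5:**
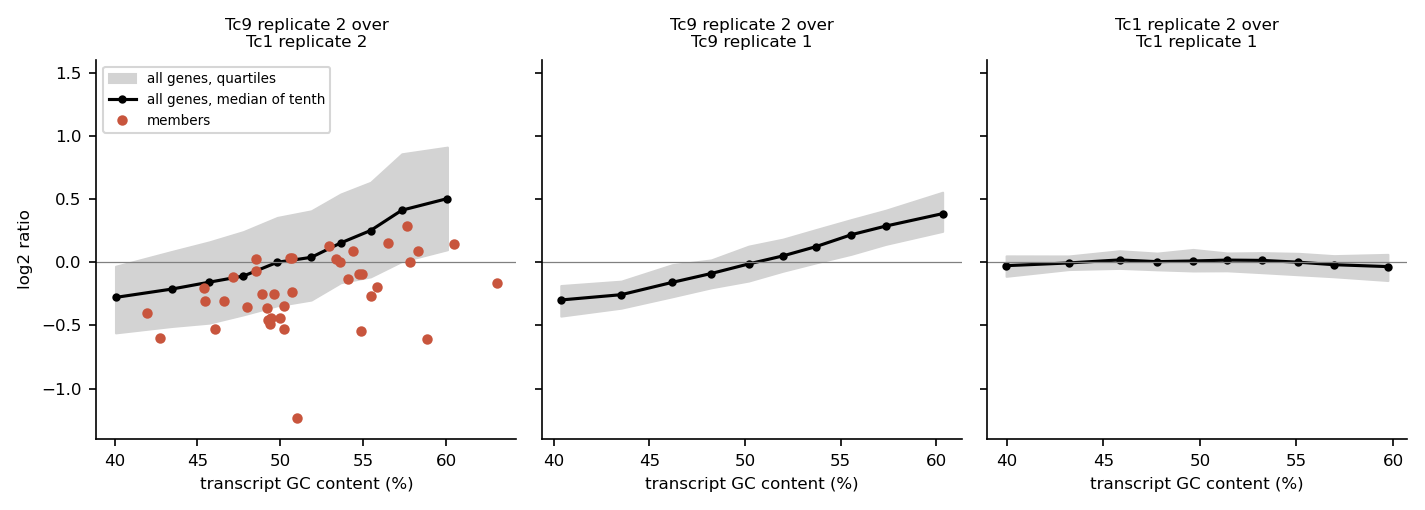
Log2 ratio against transcript GC content for 3 pairs of libraries: the black line joins the medians of 10 bins of all genes, grey spans their quartiles, and red points in the left panel are the 40 members. The line climbs where Tc9 replicate 2 is compared and is level between the Tc1 replicates, and most members lie under it.

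A scaling factor shifts the ratios of all genes alike, so it can move members across 0 and leaves their distance to other genes as it is. With TMM factors from the replicate 2 range itself, 33 of 40 (82.5%) were lower, with a median of -0.25, and the median of all genes was then -0.0002. With depth alone, 28 of 40 were lower, with a median of -0.17 beside 0.080 over all genes. The 5 members that changed side, *Rps15*, *Rpl13a*, *Rps4x*, *Rps16* and *Rpl10*, had log2 ratios between 0.00055 and 0.030.

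Other genes of translation were described in the same way. Of the ribosomal proteins outside the symbol pattern, 4 were reached by both replicate 2 libraries, 2 of them lower, with a median log2 ratio of 0.054 beside 0.030 over all genes. The highest was *Rpsa*, the laminin receptor precursor of the small subunit, with 136251 and 175561 counts (0.37), and the lowest *Fau*, which encodes Rps30, with 4870 and 3900 counts (-0.32). In the 3-library fit, 0 of 3 were called in either direction.

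Of the other TOP transcripts, a list that holds elongation and initiation factors, RNA-binding proteins and others such as vimentin and the import receptor *Ipo7*, 11 of 14 were lower in Tc9 replicate 2, beside 47.6% of all genes, with a median log2 ratio of -0.26. At the 1.5-fold limit 3 of 14 were lower, beside 12.5% of all genes, and 1 was higher, beside 20.7%. The lowest was *Npm1*, a nucleolar chaperone, with 93533 and 56570 counts (-0.72), and the highest *Vim*, which encodes vimentin, with 33461 and 55691 counts (0.74). *Eef1a1*, the elongation factor with the most counts of the list, had 483007 and 451167 counts (-0.097). In the 3-library fit, 0 of 6 were called in either direction.

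Of the 9 ribosome biogenesis genes tested in the 4-library range, 1 was lower, which is under the 16.7% of all genes, and 0 were higher, beside 17.4%. That gene, *Wdr74*, which takes part in assembly of the large subunit, fell, with 2908 and 3243 counts in Tc1 cells and 2209 and 2152 in Tc9 cells (log2 fold change -0.49, SE 0.11, adjusted p = 0.00954 by edgeR). The median of the 9 was -0.23, beside 0.0014 over all 1284 genes tested. In the replicate 2 libraries 17 of 21 were lower, beside 47.6% of all genes, with a median of -0.23. Past the 1.5-fold limit, 4 of 21 were lower, beside 12.5%, and 0 were higher, beside 20.7%. The lowest was *Ncl*, nucleolin, with 74850 and 37365 counts (-1.001), and the highest *Polr1b*, a subunit of RNA polymerase I, with 4599 and 4988 counts (0.12). In the 3-library fit, 0 of 11 were called in either direction.

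The regulators in the mTORC1 and MYC list went both ways. In the replicate 2 libraries 7 of 14 were lower, beside 47.6% of all genes, and the median was -0.0037. Past the 1.5-fold limit, 2 of 14 lay in each direction, beside 12.5% of all genes lower and 20.7% higher. The lowest was *Eif4e*, the cap-binding factor, with 7669 and 4103 counts (-0.90), and the highest *Eif4ebp2*, which encodes an inhibitor of that factor, with 2821 and 4551 counts (0.69). In the 4-library range, 1 gene was tested and 0 were called, and in the 3-library range 0 of 6.

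Mitochondrial ribosomal proteins, which build the separate ribosome of that organelle and are not TOP transcripts as a class, gave 1 lower call among 5 tested in the 4-library range, near the 16.7% of all genes, and 0 among 6 in the 3-library range, beside 3.21%. This gene, *Mrps6*, fell, with 1927 and 2058 counts in Tc1 cells and 1650 and 1194 in Tc9 cells (log2 fold change -0.48, SE 0.15, adjusted p = 0.0363 by edgeR). In the replicate 2 libraries 11 of 13 were lower, beside 47.6% of all genes, with a median log2 ratio of -0.33, and 2 passed the 1.5-fold limit downward, beside 12.5%. The lowest was *Mrps6* (-0.78) and the highest *Mrps2* (0.19).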

How the data were processed

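RNA of Tc1 and Tc9 cells sorted from tumors was sequenced, with 2 pooled libraries for each group. Per gene, the authors deposited an expected count (estimated reads, not normalized), an FPKM value scaled by gene length and library size, and a length in bases. The submitters' processing notes name the build mm10, and the aligner and counting program are not given in the sources used here. The tables used here cover different parts of the gene order. Unlisted genes inside that part were set to 0.

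Depth was the sum of counts for Tc9 replicate 2, and for the other libraries was estimated relative to it from the ratio of expected count to FPKM. Expected counts were rounded, scaled by the TMM factors of the range all 4 libraries reach, filtered with filterByExpr (minimum count 10) and tested, two-sided, in edgeR 4.0.16 (R 4.3.3; glmQLFit and glmQLFTest), with Benjamini-Hochberg adjustment over all genes. Log2 ratios of 2 libraries used a prior count of 2. DESeq2 1.42.0, limma 3.58.1 on log2(FPKM + 1) and log2(FPKM + 0.1), other scalings and filters, a replicate block and leaving out each library were alternatives, and centring by length or GC content was added after seeing the data. On simulated counts with 200 genes changed 4-fold, edgeR recovered 99.5% in the 4-library range (1284 genes) and 87.5% in the 3-library range (2613 genes). The largest estimate of the main fits for a member, a log2 fold change of -0.81 for *Rpl10*, is smaller. The simulation does not show how often changes of that size are recovered. Shared stretches and GC content came from the GENCODE vM21 transcript nearest in length to the deposited length.

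The members and the gene lists were chosen with earlier results of these data known. Named are all members of the 4- and 3-library ranges, the 5 highest and 5 lowest in FPKM and in log2 ratio with all past 1.5-fold, paralog pairs, and of other lists those past the test and the highest and lowest ratio. Other genes named with values were chosen after seeing them. Single values of 2 members are not reported here, and these members stay in the counts and medians.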

Additional observations from a re-analysis of the deposited data

How the results depend on the processing

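Replicates exist for 4 or 5 members, and the rest were compared in 1 library of each group or measured in 1 library. Deviations of same-numbered libraries from their group means had a correlation of -0.0645 across genes. This single value cannot show whether equal numbers mark shared mice, so the replicate block is given as an alternative only. With the replicate block, 2 members were lower in the 4-library range in place of 0, among 231 genes higher and 213 lower. Leaving out 1 library at a time gave 0 to 1 members higher and 0 to 2 lower, and over all genes of that range 72 to 405 higher and 39 to 405 lower, in place of 224 and 214. Without a filter on low counts, 130 genes were higher and 110 lower there, and in the 3-library range 0 of 3429 genes were called by edgeR (598 at an unadjusted p under 0.05), in place of 197 and 84; with depth alone 371 and 163, with a minimum count of 50 297 and 166, with RLE factors 321 and 216, with limma 249 and 112, with DESeq2 217 and 121, and with TMM factors made without the members 213 and 92 were called. The count of members called there stayed at 0 under these 7 alternatives. *Rplp0*, at 0.19 without Tc9 replicate 1, reversed to a log2 fold change of -0.012 without Tc9 replicate 2 in the 4-library range, and in the 3-library range to -0.014 with DESeq2 and with RLE factors. In the 3-library range the ratio to Tc1 replicate 2 was, without Tc9 replicate 1 and without Tc9 replicate 2 in turn, 0.030 and -1.15 for *Rpl10*, 0.13 and -0.074 for *Rplp0* and 0.15 and -0.35 for *Rps2*, each of which reversed in 1 of them. In the replicate 2 libraries, 70% of members were lower, and 82.5% with TMM factors of that range, with or without the members in them. The share was 90% after centring by GC content and 55% after centring by length. The median log2 ratio of -0.22 moved to -0.071 after centring by length. Under the other alternatives run there the median stayed between -0.30 and -0.17. The cause of these shifts was not tested.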
